A study of Homo sapiens with 9 samples.

Results

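Loss of METTL3 was compared with loss of WTAP by the H3K4me3 peaks that each knockout (KO) left in HEL, an established line of human erythroleukemia cells. The comparison used the 4 peak lists of these 2 groups out of the 9 lists of the series: METTL3-KO replicates 1 and 2 and WTAP-KO replicates 1 and 2. Both groups were HEL cells grown in the same medium, with no treatment or time point in the labels, and carried a CRISPR knockout of METTL3 or of WTAP. The study introduced its sgRNAs with lentiviral vectors, so a library stands for a transduced population and not for a clone. HEL cells that received a non-targeting guide (NTC, 3 libraries) and METTL14-KO cells (2 libraries) served as background. The 25407 peaks of the 4 lists were merged wherever they shared at least 1 bp, which gave 11396 regions, against 30404 for all 9 libraries. Nothing in the labels says that replicates came from separate cultures, so the spread between them may be technical.

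m6A is a methyl mark on adenosines of mRNA that is written while the RNA is made. METTL3 is the catalytic subunit of the writer, METTL14 is its partner that holds the RNA, and WTAP is the adaptor that brings the pair to nuclear speckles. H3K4me3, the trimethylated lysine 4 of histone H3, sits at the starts of active genes and is laid down by COMPASS-type complexes around SETD1A, SETD1B and the KMT2 enzymes. The comparison addresses whether removing the catalytic subunit or the adaptor leaves the same H3K4me3 pattern.

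Stretches of hg19 from the middle of the patterns described further on show what the compared regions look like. The promoters of UROS (uroporphyrinogen synthase, a heme enzyme) and BLM (a DNA helicase) held a peak in both METTL3-KO libraries and in neither WTAP-KO library. The promoter of PSMD12, a proteasome lid subunit, held a peak in all 4 libraries. The promoter of PPP2R1B, a scaffold subunit of phosphatase 2A, held a peak only in the WTAP-KO libraries. The 200 bases before an annotated start of each gene are printed 5′ to 3′ on the gene's strand, with CpG dinucleotides in capitals.
UROS, chr10:127511828-127512027, minus strand: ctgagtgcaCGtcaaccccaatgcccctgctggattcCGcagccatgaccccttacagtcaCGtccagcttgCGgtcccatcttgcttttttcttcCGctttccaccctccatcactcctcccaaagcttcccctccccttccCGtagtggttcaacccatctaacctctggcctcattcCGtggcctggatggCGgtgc
BLM, chr15:91260377-91260576, plus strand: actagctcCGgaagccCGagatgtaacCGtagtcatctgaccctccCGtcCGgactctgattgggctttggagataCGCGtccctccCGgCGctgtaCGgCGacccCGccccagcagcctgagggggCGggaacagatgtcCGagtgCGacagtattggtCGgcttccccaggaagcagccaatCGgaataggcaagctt
PSMD12, chr17:65362722-65362921, minus strand: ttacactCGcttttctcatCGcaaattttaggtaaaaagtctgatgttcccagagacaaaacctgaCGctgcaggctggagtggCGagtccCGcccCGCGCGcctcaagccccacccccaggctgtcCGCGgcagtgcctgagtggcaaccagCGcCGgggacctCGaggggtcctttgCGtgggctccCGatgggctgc
PPP2R1B, chr11:111637114-111637313, minus strand: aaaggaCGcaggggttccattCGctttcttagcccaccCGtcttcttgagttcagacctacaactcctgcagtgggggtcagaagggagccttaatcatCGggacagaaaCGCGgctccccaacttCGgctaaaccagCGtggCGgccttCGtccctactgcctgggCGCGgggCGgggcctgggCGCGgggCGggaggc
The other 2 stretches come from intergenic regions that were among those of highest signal in the WTAP-KO libraries, and capitals mark GGAAT or its reverse complement ATTCC.
Chromosome 2, chr2:89879075-89879245, plus strand: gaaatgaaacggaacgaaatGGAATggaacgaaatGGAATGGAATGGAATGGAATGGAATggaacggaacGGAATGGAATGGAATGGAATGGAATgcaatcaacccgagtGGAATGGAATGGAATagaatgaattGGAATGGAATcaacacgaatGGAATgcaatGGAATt
Chromosome 19, chr19:27732591-27732761, plus strand: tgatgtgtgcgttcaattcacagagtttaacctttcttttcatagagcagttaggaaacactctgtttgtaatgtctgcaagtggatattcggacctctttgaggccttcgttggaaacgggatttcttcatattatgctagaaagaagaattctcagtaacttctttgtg
The first of these is a run of the pentamer GGAAT, whose letters took up 56.8% of its region. The second holds few GGAAT letters, and its region matched itself at 55.3% of positions when shifted by 340 bases.

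A region's value is the sum of the deposited signals of its peaks, in units calibrated to a yeast spike-in. The worth of 1 fragment was taken as the largest step of which nearly all low values in a list were whole multiples. It was 0.461 and 1.07 after METTL3 loss, and 0.407 and 0.320 after WTAP loss. Depth is otherwise unknown. The lowest signal of each list lay between 30.1 and 32.0. Taken as 2 coverage intervals of the same height, it was a stack of 33 and 15 fragments in METTL3-KO, 37 and 47 in WTAP-KO and 12 to 14 in NTC. Which peaks are listed, and so peak numbers, covered bases and marked genes, therefore rests on the spike-in scale. All lists, NTC included, hold peaks of 150 to 2000 bp only. Whether wider domains were left out or split was not tested, so the absence of a peak is not the absence of the mark. Among 9 erythroid markers 7 held a promoter peak in all 3 NTC libraries (GATA1, KLF1 and EPOR among them), against 3 of 7 megakaryocyte, 1 of 7 myeloid, 2 of 7 lymphoid and 0 of 7 liver, epithelial and neural markers. The longer lists separated less: 12 of 15 erythroid transcription factors, 6 of 16 red cell membrane genes, 1 of 9 globin and chaperone genes, 5 of 15 megakaryocyte, 3 of 12 myeloid and 6 of 14 lymphoid markers were marked in all 3, beside 8492 of 20136 genes. In the KO libraries compared here, GATA1, KLF1 and EPOR had no promoter peak.

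METTL3-KO cells had more H3K4me3 peaks than WTAP-KO cells, over more of the genome and at more genes. The METTL3-KO lists held 9369 and 9205 peaks and the WTAP-KO lists 3160 and 3673, so that METTL3-KO libraries had 272% of the WTAP-KO number (9287 ± 116 against 3416.5 ± 363, mean ± SD, n = 2 each). Both METTL3-KO libraries lay above both WTAP-KO libraries. Covered bases came to 5.43 and 5.00 Mb in METTL3-KO and to 1.38 and 1.67 Mb in WTAP-KO, a ratio of 342%. The median peak was 454 and 424 bp wide after METTL3 loss and 329 and 356 bp after WTAP loss. In each of these measures the groups did not overlap, but with 6 splits of 4 libraries the two-sided exact permutation test cannot go below p = 0.333, the value each gave. The median peak signal did not separate the groups, with 1446 and 852 in METTL3-KO against 910 and 1091 in WTAP-KO (exact permutation p = 1).

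**Figure D1:**
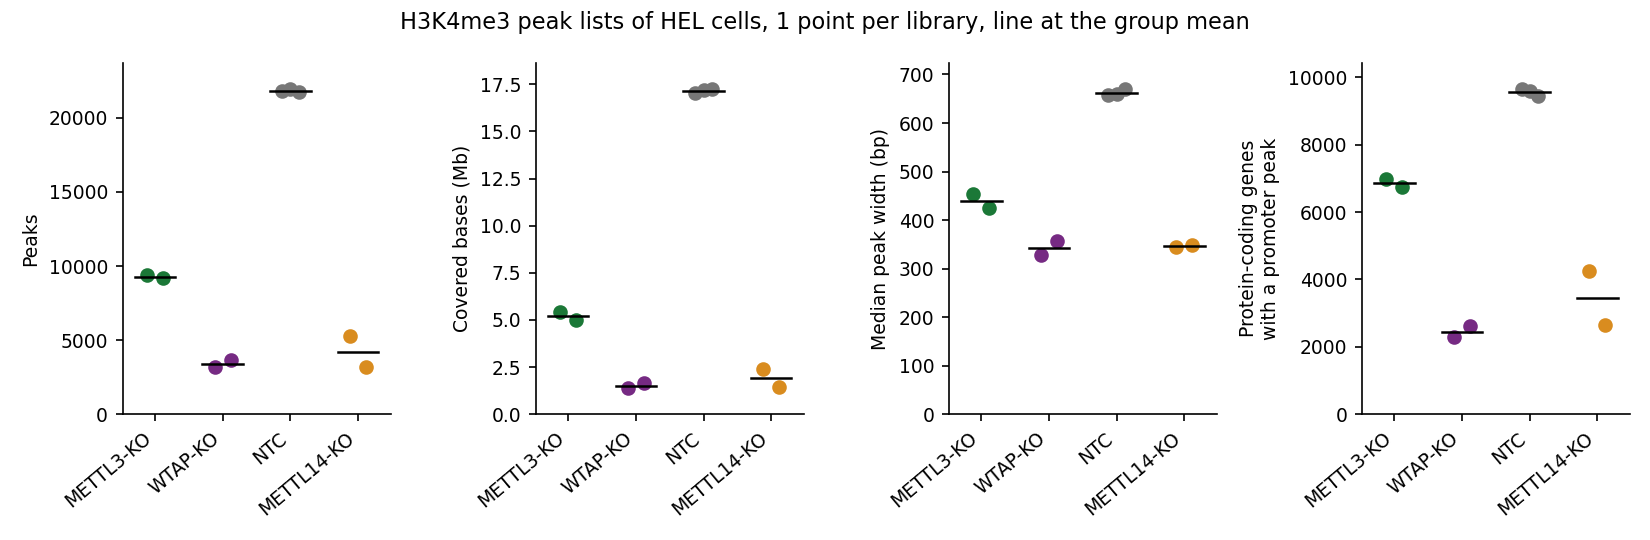
Peaks, covered bases (Mb), median peak width (bp) and protein-coding genes with a promoter peak in each of the 9 libraries, with 1 point per library and a line at the group mean. The 2 METTL3-KO libraries lie above the 2 WTAP-KO libraries in all 4 panels, and the 3 NTC libraries lie above both groups.

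Most WTAP-KO regions were also METTL3-KO regions, while the reverse did not hold. Both METTL3-KO libraries had a peak in 6907 regions and both WTAP-KO libraries in 2466. All 4 libraries had a peak in 1821 regions, which is 73.8% of the WTAP-KO regions (95% Wilson interval 72.1 to 75.5) and 26.4% of the METTL3-KO regions (25.3 to 27.4), intervals that cover counting error over regions only. At least 1 METTL3-KO library had a peak in 91.6% of the WTAP-KO regions. The regions found in both libraries of one group and in neither of the other numbered 4014 for METTL3-KO and 206 for WTAP-KO.

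**Figure D2:**
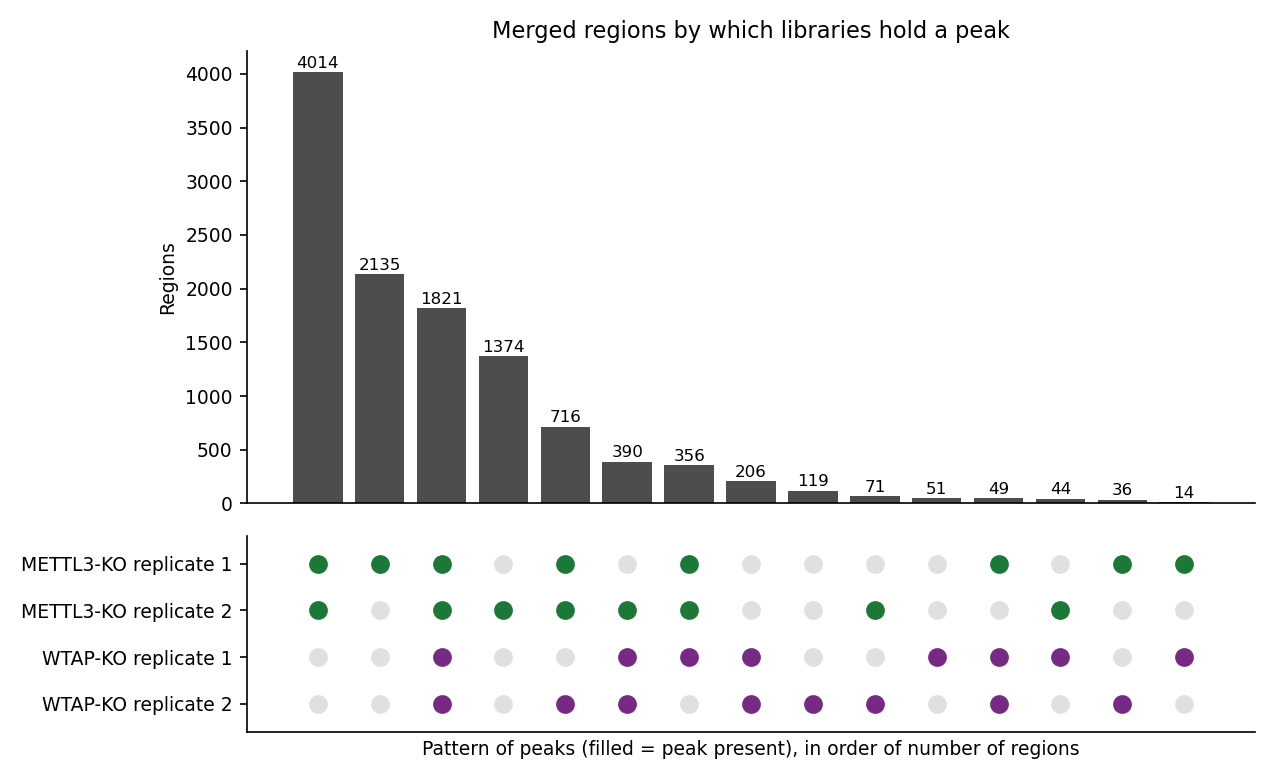
The 11396 regions by which of the 4 libraries hold a peak; bar height is the number of regions and filled dots below each bar name the libraries. The pattern of both METTL3-KO libraries alone is the most frequent (4014 regions), and both WTAP-KO libraries alone account for 206.

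The unequal sets of regions went with the unequal length of the lists. When each list was cut to its 3160 strongest peaks, 418 regions were METTL3-KO only and 371 WTAP-KO only, with 1448 of 4818 regions in all 4 libraries. Genes marked in 1 group only stayed unequal with these lists, at 430 for METTL3-KO and 126 for WTAP-KO. At this equal number, pairs of libraries from different groups shared 59.9% to 72.1% of their peaks and pairs from the same group 74.1% to 77.7%. A region's METTL3-KO signal also went with its presence in WTAP-KO. Of the METTL3-KO regions in the lowest quartile of mean METTL3-KO signal, 1.10% had a peak in both WTAP-KO libraries, against 4.05%, 24.9% and 75.4% in the following quartiles.

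The 2 METTL3-KO replicates did not relate to WTAP-KO in the same way. Of the regions with a peak in both WTAP-KO libraries and 1 METTL3-KO library, 390 had it in METTL3-KO replicate 2 and 49 in replicate 1. Without METTL3-KO replicate 2 the WTAP-KO-only regions numbered 596, and without replicate 1 they numbered 255.

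The regions held only after METTL3 loss were mostly promoters, as were the regions in general. Of the 4014, 86.7% lay within 1 kb of a protein-coding start, against 77.8% of all 11396 regions and 81.2% of those in all 4 libraries. A peak in all 3 NTC libraries was present in 49.9% (43.6% of all regions) and in no NTC library in 33.8% (40.6% of all regions), and the median width was 520 bp. The strongest at gene starts were SIAH2 (a ubiquitin ligase), BLM, CTSC (a lysosomal protease), SPAST (a microtubule-severing enzyme) and SAMD13. At BLM (chr15:91259984-91261390, the region whose promoter stretch is printed above) the signals were 9692 and 3676 in METTL3-KO, with no peak in either WTAP-KO library or in any NTC library. At SPAST (chr2:32287592-32289686) they were 8603 and 3956, again with no WTAP-KO or NTC peak. In all 5, METTL3-KO replicate 1 was the higher library, and METTL14-KO replicate 1 held a peak as well. The METTL3-KO-only regions of highest mean signal were intergenic pairs on chromosomes 4 and 10 with 60.0% to 62.3% of bases in GGAAT or ATTCC letters and peaks in all 3 NTC libraries (4930 to 17299), in which METTL3-KO replicate 2 reached 14281 to 36024 and replicate 1 only 1030 to 2283.

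The regions held only after WTAP loss were of another make-up. Of the 206, 51.9% lay within 1 kb of a protein-coding start and 28.6% were intergenic, against 2.74% intergenic among METTL3-KO-only regions. Their median GC content was 46.2%, against 57.4% in METTL3-KO-only regions and 53.5% in regions of all 4 libraries. No NTC library had a peak in 96.1% of them, against 40.6% of all regions and 50.4% of regions in all 4 libraries. A METTL14-KO peak was present in 65.5%, against 44.2% and 95.6%. The ETS motif CCGGAAG, searched on both strands in the central 300 bp, was present in 3.40% of WTAP-KO-only regions, 12.5% of METTL3-KO-only regions, 12.9% of regions in all 4 libraries and 10.1% of all 11396. The GATA motif AGATAA was present in 11.7%, 9.34%, 10.7% and 9.94%.

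The short arm of chromosome 9 held 14 of the 206 WTAP-KO-only regions (6.80%), against 1.31% of all regions, 2.25% of those in all 4 libraries and 0.698% of METTL3-KO-only regions. The start of DENND4C, a regulator of vesicle traffic (chr9:19230510-19232754), had signals of 21483 and 26825 in WTAP-KO and no METTL3-KO or NTC peak. UHRF2, a ubiquitin ligase that binds modified DNA (chr9:6413481-6415049), had 17553 and 19685, and KIAA2026 (chr9:6006570-6008005) had 9037 and 11350. METTL14-KO replicate 2 had peaks of like size at these 3 starts, with 26832, 20402 and 8910, and METTL14-KO replicate 1 had none. PPP2R1B on chromosome 11 (chr11:111636037-111637778) had 12255 and 13594 in WTAP-KO and no peak in any other library.

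Some WTAP-KO-only regions lay near METTL3-KO peaks of the same gene. At RUNX1, a hematopoietic transcription factor, the WTAP-KO libraries had a region at chr21:36257290-36258892 with 6506 and 7726, and the METTL3-KO libraries one at chr21:36259380-36260588 with 6541 and 2530. At FLI1, which drives megakaryocyte genes, chr11:128564695-128566184 held 9823 and 10671 in WTAP-KO alone, while a region near another FLI1 start, chr11:128554540-128555948, held 17053 and 11335 in METTL3-KO and 6321 and 8905 in WTAP-KO. Merging peaks within 1 kb of each other reduced the WTAP-KO-only regions from 206 to 93. The part that the 2000 bp limit on width plays in these regions was not tested.

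Regions rich in GGAAT repeats took a larger part of the signal in the WTAP-KO libraries than in the others. Regions in which GGAAT or ATTCC letters took up over 20% of bases numbered 341, mostly on chromosomes Y (131), 10 (84) and 4 (63), and this limit was chosen after seeing the data. They held 21.5% and 19.8% of all peak signal in the WTAP-KO lists, against 1.14% and 6.39% in METTL3-KO. The shares were 0.364% to 0.462% in NTC and 4.88% and 3.76% in METTL14-KO. All 341 were built from METTL3-KO and WTAP-KO peaks, so repeats with a peak only in NTC or METTL14-KO were not counted. The NTC and METTL14-KO shares of all signal may therefore be too low. Within all regions built from METTL3-KO and WTAP-KO peaks, NTC had 0.565% to 0.693% and METTL14-KO 4.74% and 3.68%. The WTAP-KO libraries had a peak in 234 and 254 of the 341, METTL3-KO replicate 1 in 30 and replicate 2 in 214. METTL3-KO replicate 2 thus lay near the WTAP-KO libraries by this count and replicate 1 did not. Of the 390 regions shared by WTAP-KO and METTL3-KO replicate 2 alone, 140 were of this kind, and so were 48 of the 206 WTAP-KO-only regions but 6 of the 4014 METTL3-KO-only regions.

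In the chromosome 2 region whose middle is printed above (chr2:89878342-89879978) the signal was 1042 and 30506 in METTL3-KO, 49283 and 58775 in WTAP-KO, and 14424, 10943 and 8320 in NTC. Both WTAP-KO values were above every other library. The chromosome 19 region (chr19:27731804-27733548) held 69059 in METTL3-KO replicate 1, no peak in replicate 2, and 321275 and 371035 in WTAP-KO, against 111678 to 138350 in NTC. Reads from such repeats can align to many places in hg19, and the part that alignment played was not tested.

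In the regions called in all 4 libraries the calibrated signal was higher after METTL3 loss. The median over these 1821 regions was 5835 and 3368 in METTL3-KO and 963 and 1385 in WTAP-KO, and the median log2 difference was 1.83, with 1.32 to 2.47 covering the middle of the distribution from the lower to the upper quartile. Both METTL3-KO libraries lay above both WTAP-KO libraries in 1646 regions (90.4%) and below them in 28 (1.54%). By limma with Benjamini-Hochberg adjustment at 0.05, 1222 regions (67.1%) differed: 1196 (65.7%) were higher in METTL3-KO and 26 (1.43%) higher in WTAP-KO. In this fit limma took the spread from the trend over all 1821 regions, with no weight on a region's own replicates. In the fit over all 7717 regions with a peak in at least 2 libraries, which does weigh them, 431 of the 1821 were higher in METTL3-KO and 1 in WTAP-KO. This direction rests on the spike-in scale. Divided by the worth of 1 fragment, the medians were 12668 and 3154 in METTL3-KO and 2365 and 4326 in WTAP-KO, where the groups overlapped, and 1 region passed (59 at an unadjusted p under 0.05). The fragment scale has no correction for library depth, so this overlap cannot show whether the groups were equally marked. Centred on these regions' own median per library, which takes out a log2 shift of 1.94, 2 were higher in METTL3-KO and 20 in WTAP-KO. Leaving out METTL3-KO replicate 1 left 168 calls, leaving out WTAP-KO replicate 1 left 228, and leaving out WTAP-KO replicate 2 left 583.

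**Figure D3:**
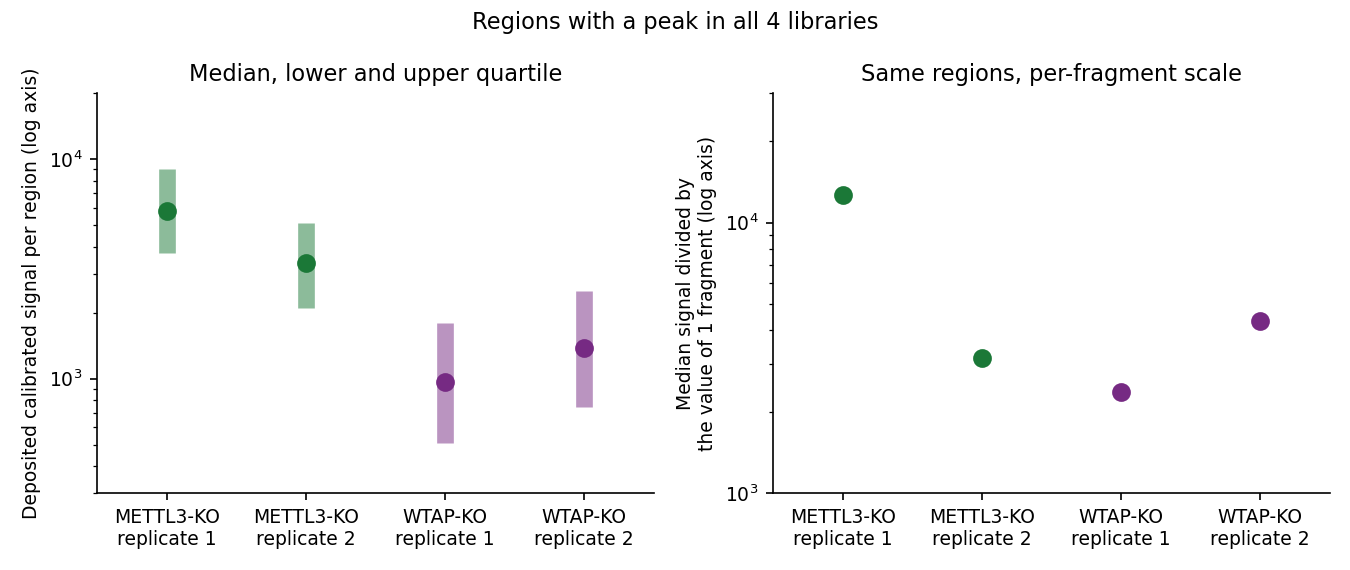
Left, deposited calibrated signal (log axis) of the 1821 regions with a peak in all 4 libraries, with a point at the median and a bar from the lower to the upper quartile; right, the same medians divided by the worth of 1 fragment in each library (log axis). On the calibrated scale the METTL3-KO medians (5835 and 3368) are above the WTAP-KO medians (963 and 1385). On the fragment scale, which has no correction for library depth, the groups overlap.

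The order of regions by signal was more alike within a group than between groups. Across the 1821 regions, which are not independent replicates, Spearman's rho was 0.81 between the METTL3-KO libraries and 0.82 between the WTAP-KO libraries, and between 0.59 and 0.71 for pairs across groups. The values are a description, since all 4 libraries share the sequence and mappability of each region.

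The regions with the largest log2 difference toward METTL3-KO were all promoters. The shared start of NPAT, a histone gene activator, and ATM, the DNA damage kinase (chr11:108091680-108093354), had 6537 and 3644 in METTL3-KO and 203 and 45.2 in WTAP-KO, a log2 difference of 5.67 ± 0.94 (SE; limma adjusted p = 6.4e-07, and 0.016 in the fit over 7717 regions). BORCS7, a lysosome positioning subunit (chr10:104614038-104614584), had 2384 and 1927 against 30.1 and 76.5, with 7509 to 9801 in NTC. The others were CLCN3, a chloride transporter, MAT2B, a regulatory subunit of methionine adenosyltransferase, and ANKHD1. Of these 5, CLCN3 did not pass in the fit over 7717 regions (limma adjusted p = 0.092). At BORCS7, CLCN3 and ANKHD1, 1 WTAP-KO value was the lowest signal of its list (30.1). The size and rank of these differences thus depend on that floor. The methyl donor S-adenosylmethionine is made by the enzyme that MAT2B regulates, and at its start (chr5:162930281-162933312) METTL3-KO had 10891 and 4773 and WTAP-KO 125 and 388. In the opposite direction the 5 leading regions were all intergenic, on chromosomes 16, 2, Y, 2 and 8. The chromosome 16 region (chr16:46397210-46398886) had 124 and 16608 in METTL3-KO and 38210 and 50234 in WTAP-KO, a log2 difference of -4.93 with the METTL3-KO replicates far apart. The fit over the 1821 regions gave it an SE of 0.61 and a limma adjusted p of 1.9e-12, and the fit over 7717 regions a difference of -4.77 ± 2.60 (SE; limma adjusted p = 0.18). None of the 5 passed in the latter fit, the others with limma adjusted p between 0.19 and 0.25. In all 5, METTL3-KO replicate 2 lay closer to WTAP-KO than replicate 1 did.

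Over the 7717 regions with a peak in at least 2 libraries, limma called 4742 (61.4%), of which 4531 (58.7%) were in METTL3-KO and 211 (2.73%) in WTAP-KO. Of these calls 3873 and 202 were regions that had no peak in the other group and entered only through the group where they were high, so the counts restate the peak sets. Without METTL3-KO replicate 1 the total fell to 444 of 3653 regions and without replicate 2 to 1835 of 3588. A single METTL3-KO library was then assumed to vary like the WTAP-KO pair.

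How much of the METTL3-KO pattern WTAP-KO cells shared varied by chromosome. Of the METTL3-KO regions on chromosome 21, 65.8% (77 of 117) had a peak in both WTAP-KO libraries, and on chromosome 6 the share was 41.0% (256 of 625). On chromosomes 5, 7, 14, 16, 18 and 22 it lay between 2.13% and 9.21%. Both WTAP-KO replicates showed this order at its ends, with 69.2% and 71.8% on chromosome 21 and 6.33% and 8.86% on chromosome 22. Within regions that had a peak in all 3 NTC libraries the shares were 61.1% on chromosome 21, 39.4% on chromosome 6 and 4.17% on chromosome 22.

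Signal in the other groups followed the same order of chromosomes. The median METTL3-KO signal of these regions was 5460 and 3450 on chromosome 21, 3568 and 1964 on chromosome 6, and 1082 and 625 on chromosome 22. The median NTC signal, where all 3 had a peak, was 17212, 12845 and 6913 on these chromosomes. Over the 22 autosomes the share with peaks in WTAP-KO had a Spearman's rho of 0.92 and a Pearson's r of 0.94 with the median signal in METTL3-KO replicate 1, and of 0.89 and 0.94 with the median NTC signal. These are descriptions over chromosomes that share libraries and calibration. HEL copy number was not measured here, and its part in the order of chromosomes was not tested.

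**Figure D4:**
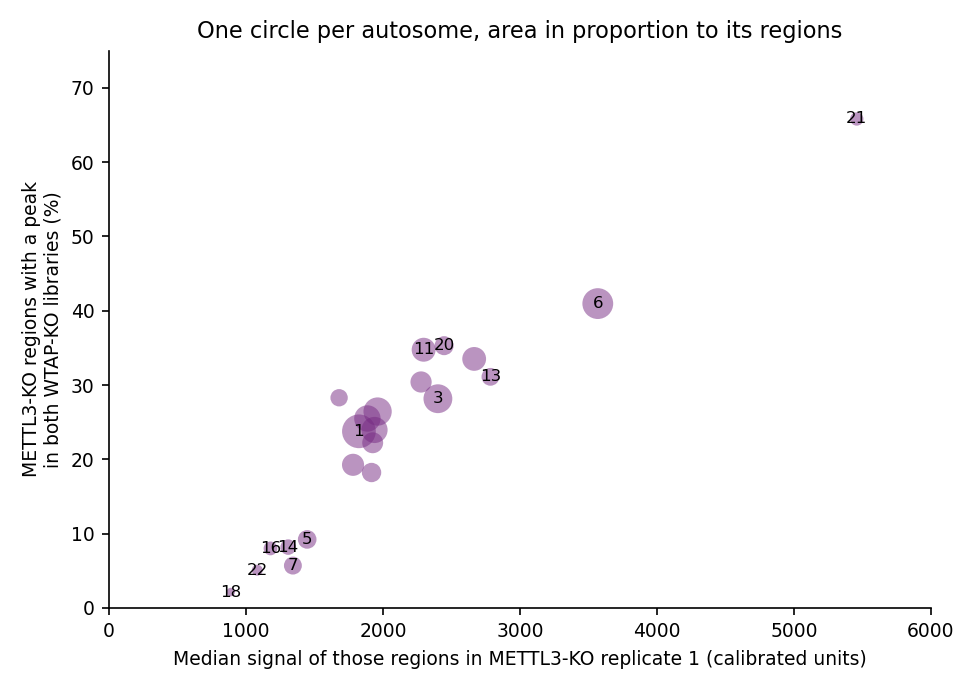
Share of METTL3-KO regions that also had a peak in both WTAP-KO libraries (%) against the median signal of those regions in METTL3-KO replicate 1 (calibrated units), with 1 circle per autosome, numbered where legible, and an area in proportion to its regions. Chromosome 21 (65.8%) and chromosome 6 (41.0%) lie highest and chromosomes 18 and 22 lowest.

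At gene starts, 6976 and 6748 of 20136 protein-coding genes had a peak within 1 kb after METTL3 loss and 2298 and 2606 after WTAP loss, a ratio of 280% (6862 ± 161 against 2452 ± 218, n = 2 each; exact permutation p = 0.333, the smallest possible). The groups did not overlap. Genes marked in both METTL3-KO libraries and no WTAP-KO library numbered 3314 (16.5%), the opposite set 72 (0.358%), and 1764 (8.76%) were marked in all 4. Control cells marked 8492 genes in all 3 libraries. Both METTL3-KO libraries marked 3384 of these (39.8%) and both WTAP-KO libraries 796 (9.37%). Of the 8492, 2124 (25.0%) were METTL3-KO only, 2 (0.0236%) WTAP-KO only and 788 (9.28%) in all 4, and 3925 (46.2%) had no promoter peak in the 4 libraries. By limma on the summed promoter signal of 6258 genes marked in at least 2 libraries, 4577 (73.1%) passed; 4504 (72.0%) were higher in METTL3-KO and 73 (1.17%) in WTAP-KO. Of the 4504, 3257 had no WTAP-KO peak, so they had to differ. Among the 1764 genes marked in all 4, 881 were higher in METTL3-KO and 1 in WTAP-KO, and after centring, which takes out a log2 shift of 2.10, 32 and 206. Without METTL3-KO replicate 1 the calls over all genes fell to 732 of 2928, and without replicate 2 to 1409 of 2933.

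Most genes of the writer complex held a promoter peak after METTL3 loss, and few did after WTAP loss. The METTL3 promoter (chr14:21979162-21979719) had 1095 and 915 in METTL3-KO, no peak in WTAP-KO and 6578, 9224 and 10067 in NTC. The WTAP promoter, whose window also covers a start of SOD2, had 5749 and 673 in METTL3-KO and none in WTAP-KO, and METTL14 had 965 and 349 and none. A promoter mark does not check that the gene was disrupted, and the lists hold no measure that does. Of the 9 writer genes 7 were marked in both METTL3-KO libraries and 2 in both WTAP-KO libraries, where the shares over all genes were 30.0% and 9.67%. VIRMA, the large scaffold of the complex, was marked in all 4, with 7439 and 3805 against 1138 and 1176.

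H3K4 methyltransferase genes had more marked members in METTL3-KO than in WTAP-KO, as all genes did. Of 17 genes of the COMPASS list, 11 had a promoter peak in both METTL3-KO libraries and 4 in both WTAP-KO libraries, and all 4 of these (KMT2A, ASH2L, WDR82 and NCOA6) were marked in METTL3-KO too. The shares marked over all genes were 30.0% and 9.67%. Of the 11 that could be tested 7 were higher in METTL3-KO and none in WTAP-KO, a share below the 72.0% of all tested promoters. The median log2 difference was 4.24, against 4.33 over all promoters tested. SETD1B, KMT2B, RBBP5, DPY30 and CXXC1 had no WTAP-KO peak and entered only through METTL3-KO, so they had to differ. Of the 4 marked in all 4 libraries, ASH2L and WDR82 passed. Neither passed after centring (limma adjusted p = 0.093 and 0.60). SETD1B had 2372 and 1422 in METTL3-KO and no WTAP-KO peak, SETD1A had no peak in the 4 libraries and 827 to 1192 in NTC, and KMT2D had 262 in METTL3-KO replicate 2 alone. KMT2A, a promoter methyltransferase with no peak in NTC, did not pass the test, with 21473 and 31730 in METTL3-KO and 15290 and 23990 in WTAP-KO (log2 difference 0.45 ± 0.32, SE; limma adjusted p = 0.25). Relative to the shift of promoters marked in all 4 it stood at -1.65 (limma adjusted p = 0.012).

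Erythroid genes also had more marked members in METTL3-KO, where the shares over all genes were 30.0% and 9.67%. Of the 9 heme synthesis genes 5 were marked in both METTL3-KO libraries and 1 in both WTAP-KO libraries. UROS had 2008 and 1292, and UROD, the next enzyme of the pathway, 9015 and 2866, with no WTAP-KO peak at either. Of 15 erythroid transcription factors 8 and 2 were marked in both libraries of METTL3-KO and WTAP-KO, the 2 being TAL1 and RUNX1. The WTAP-KO shares of 11.1% and 13.3% lay near that of all genes. LDB1, a GATA1 cofactor, had 4340 and 2470, MYB had 2746 and 1907, and KLF3 had 1750 and 1409 in METTL3-KO, with no WTAP-KO peak.

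Red cell membrane genes held the list's exception. RHAG, the Rh-associated glycoprotein (chr6:49603315-49604245), had 1915 and 3675 in WTAP-KO and no peak in METTL3-KO or NTC, and METTL14-KO replicate 1 had 7601. ANK1, the ankyrin of the red cell skeleton, was marked in all 4, with 12838 and 6953 against 3465 and 2756. Of the 16 genes 6 (37.5%) were marked in both METTL3-KO libraries and 3 (18.75%) in both WTAP-KO libraries. The shares over all genes were 30.0% and 9.67%. TFRC, the transferrin receptor, was the only one of 18 iron and heme transport genes (5.56%) marked in both WTAP-KO libraries, at 563 and 536 against 3575 and 4005. Both METTL3-KO libraries marked 5 of the 18 (27.8%). In EPO receptor signalling, PIM1, a kinase, had 8883 and 7150 in METTL3-KO against 1392 and 1266 in WTAP-KO (log2 difference 2.56 ± 0.43, SE; limma adjusted p = 0.011). Relative to the shift of promoters marked in all 4 it stood at 0.46 and did not pass (limma adjusted p = 0.38). EPOR, marked in all 3 NTC libraries, had no peak in the 4 libraries. HEMGN, which the paper shows among its examples of H3K4me3 loss, had no promoter peak in these or in NTC libraries. With no listed peak in either, the lists cannot show whether its mark differed from that of control cells.

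Housekeeping lists had larger marked shares than the 30.0% and 9.67% of all genes, least so for splicing factors in WTAP-KO (11.6%), and these differences were not tested. In NTC, too, 60 of 79 ribosomal and 47 of 65 respiratory chain genes were marked in all 3 libraries. Of 79 cytosolic ribosomal protein genes 55 (69.6%) were marked in both METTL3-KO libraries and 19 (24.1%) in both WTAP-KO libraries. RPS18 had 16085 and 12547 against 4801 and 5479, and RPS10 had 4380 and 2912 with no WTAP-KO peak. RPS25 was the reverse, with 6658 and 7771 in WTAP-KO and no peak in METTL3-KO or NTC, at a start that it shares with TRAPPC4. Of 31 proteasome genes 21 and 8 were marked, of 65 respiratory chain genes 42 and 13, and of 43 splicing factor genes 29 and 5. PSMB1, which shares its start with TBP, was the one proteasome gene marked only in WTAP-KO, at 2802 and 3501. In translation initiation and polyA binding 17 and 7 of 34 were marked. PABPC1, the main polyA-binding protein, had 1472 and 749 in METTL3-KO and none in WTAP-KO, and PABPC4 had no peak in the 4 libraries. Of 28 cell cycle genes 15 and 6 were marked, and of 41 DNA replication genes 20 and 8. CDKN1B, which encodes p27, had 14189 and 12754 against 3303 and 3215 (log2 difference 2.04 ± 0.22, SE; limma adjusted p = 0.0033), which is -0.06 relative to the shift. CCND3, cyclin D3, had 13391 and 7252 against 558 and 1179, and MCM3, a helicase subunit, 16360 and 12313 against 1671 and 2596. These 2 stood at 1.45 and 0.65 relative to the shift (limma adjusted p = 0.033 and 0.049). All WTAP-KO signal of CCND3 lay at a start shared with TAF8 (chr6:42018272-42018871), where METTL3-KO had 4188 and 2565. The log2 difference there was 1.97 (limma adjusted p = 0.094 in the fit over 7717 regions). The other CCND3 regions held METTL3-KO peaks only, so its value relative to the shift includes regions that had to differ.

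The m6A reader and eraser list and the H3K4 demethylases were short. Of 10 readers and erasers 6 (60%) were marked in both METTL3-KO libraries and 2 (20%) in both WTAP-KO libraries. Of 6 demethylases 3 (50%) and 1 (16.7%) were. The shares over all genes were 30.0% and 9.67%, and those of the megakaryocyte markers named below were 20% and 13.3%. KDM1A, which removes lower states of K4 methylation, had 5728 and 3918 in METTL3-KO and none in WTAP-KO. Of 15 megakaryocyte markers 3 and 2 were marked, ITGA2B at 2456 and 749 in METTL3-KO alone and FLI1 at 17053 and 11335 against 14255 and 23067, a log2 difference of -0.38 ± 0.34 (SE; limma adjusted p = 0.34). With only the highest peak at each promoter, FLI1 stood at 0.62. Of 9 globin and chaperone genes 1 (11.1%), HBD, was marked in both METTL3-KO libraries (938 and 391), and none in WTAP-KO. None of the 12 myeloid, 14 lymphoid and 14 liver, epithelial and neural markers was marked in both libraries of either group.

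**Figure D5:**
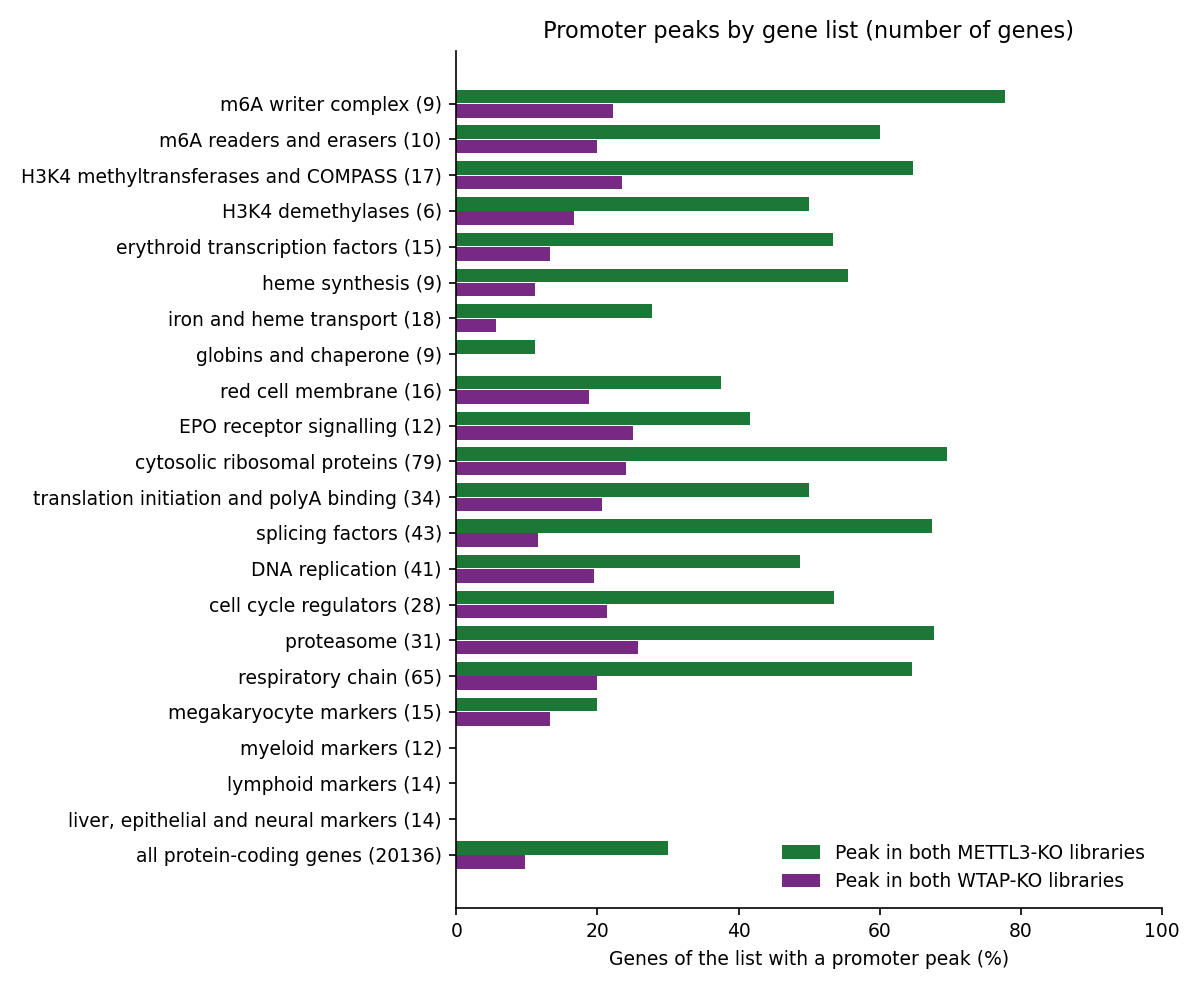
Share of the genes of each list (%) with a promoter peak in both METTL3-KO libraries and in both WTAP-KO libraries, with the number of genes in brackets and all protein-coding genes in the bottom row. The METTL3-KO bar is the longer one in every list with a marked gene, as it is over all genes (30.0% against 9.67%).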

How the data were processed

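H3K4me3 was profiled by CUT&RUN, in which an antibody directs a nuclease to cut out marked chromatin, from HEL cells with yeast spike-in DNA, sequenced paired-end at 50 bp. The authors deposited 1 peak list per library, in hg19, with a signal per peak that is calibrated to the spike-in and stands on no count scale. The submitters' processing notes name Bowtie and Picard, whose versions are not given in the sources used here. Each list was called on its own library. Starts were read as 0-based and are printed 1-based.

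Peaks of the METTL3-KO and WTAP-KO libraries that shared at least 1 bp were merged, and a region's value was the sum of its peaks. A gene was marked when a peak lay within 1 kb of a start in the GENCODE annotation lifted to hg19 (20136 protein-coding genes). Sequences came from the hg19 reference. limma 3.58.1 with a mean trend was fitted to log2(signal + 30.1), or to log2(signal) where all 4 libraries had a peak. The fit set 2 libraries against 2, with Benjamini-Hochberg adjustment at 0.05. It was also run on simulated data with normal noise and no exact zeros, which does not bear on calls at regions without a peak. A fold on the scale with the pseudocount understates the change of low values. Single values used a two-sided exact permutation test. Python 3.11.15, pandas 2.3.3, scipy 1.17.1 and R 4.3.3 were used.

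The compared libraries and the 21 gene lists (497 genes, all found) were chosen with earlier results of these data known. Named regions were the 10 of highest mean signal in each group-only set and the 5 of largest difference in each direction among regions of all 4 libraries whose groups did not overlap. Named genes were a set of 14 and up to 4 per list and pattern. Results for some named genes are not reported here. Alternatives changed the number of peaks, overlap, merging, window, pseudocount, centring, scale, model and replicates. Those restricted to regions under 1 kb, with an NTC peak or without GGAAT repeats, and to genes marked in NTC, were chosen after seeing the data.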

Additional observations from a re-analysis of the deposited data

Results flagged for a closer look

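The limma tests of METTL3-KO against WTAP-KO called 4742 of 7717 regions with a peak in at least 2 libraries (61.4%). They also called 1222 of 1821 regions with a peak in all 4 libraries (67.1%) and the promoters of 4577 of 6258 genes (73.1%). Of the 4742 regions, 3873 held only METTL3-KO peaks and 202 only WTAP-KO peaks. Of the 4577 promoters, 3257 and 72 did. These calls entered only through the group where they were high, so they had to differ. Of the 1821 regions in all 4 libraries, 431 (higher in METTL3-KO) and 1 (higher in WTAP-KO) passed in the fit over 7717 regions, which weighs each region's own replicates. In 7 regions both WTAP-KO libraries lay above all 3 NTC libraries and both METTL3-KO libraries below them, and this opposite position was not tested. These 7 lay on chromosomes 8 (2 regions), 16, 19 (2 regions), 20 and Y. The chromosome Y region (chrY:10020548-10022577) had 2803 and 12041 in METTL3-KO, 17437 and 24676 in WTAP-KO, and 15293 to 17002 in NTC. Either position requires a peak in all 3 NTC libraries, which 4971 of the 11396 regions had. None of these had METTL3-KO above and WTAP-KO below all NTC libraries. Summed over a promoter window, that position did occur. SETD1B had 2372 and 1422 in METTL3-KO, no WTAP-KO peak and 902 to 1165 in NTC. UROD had 9015 and 2866 in METTL3-KO, no WTAP-KO peak and 404 to 796 in NTC. At both, the NTC peaks lay outside the METTL3-KO regions. How many promoters held this position was not counted.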

How the results depend on the processing

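The METTL3-KO excess in peak number, covered bases, peak width and marked genes kept its direction under each alternative tried. None of these alternatives put these measures on the fragment scale, so their dependence on the spike-in scale was not tested. The ratio of median peak signal turned to 69.8% on the fragment scale, which has no correction for library depth. With an equal number of peaks per library, METTL3-KO-only and WTAP-KO-only regions numbered 418 and 371, the shared shares were 62.4% of either group's regions, and the genes marked in one group only were 430 and 126. With peaks at or above the median signal, METTL3-KO-only regions numbered 2117, genes marked only in METTL3-KO 2126, and the shared shares were 59.8% of WTAP-KO and 21.99% of METTL3-KO regions. Merging within 1 kb gave 93 WTAP-KO-only regions and shares of 83.8% and 29.3%, and a 50% overlap gave 47.3% and 7.74%. Regions with an NTC peak gave 2656 METTL3-KO-only and 8 WTAP-KO-only regions, shares of 85.6% and 21.8%, and 2947 and 589 limma calls, with 6 genes marked only in WTAP-KO. Regions under 1 kb gave shares of 65.1% and 15.2% and 475 calls among regions of all 4 libraries. Without GGAAT repeats the WTAP-KO share was 79.9%. In regions of all 4 libraries, centring left 22 calls (514 at an unadjusted p under 0.05) and the fragment scale 1, with most or all of them higher in WTAP-KO. Their cause was not tested, beyond the shift that centring removes.

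Leaving out each replicate gave ranges of 85.2% to 145% for median signal, 4370 to 6149 METTL3-KO-only and 255 to 596 WTAP-KO-only regions, shares of 74.3% to 89.7% and 20.5% to 36.7%, 3642 to 4192 and 75 to 149 genes marked in one group only, and 444 to 5326, 168 to 1459 and 732 to 4862 limma calls for regions, regions of all 4 libraries and promoters. A group of 1 library was assumed to vary like the other.

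Same-numbered replicates did not deviate together (correlation -0.0053 over 7717 regions and -0.070 over 1821). With 2 libraries per group this cannot settle whether the numbers pair the libraries, and the labels do not say. With the replicate block the calls were 5510, 264 and 4661, and the ratios 273%, 343% and 280% for peaks, covered bases and marked genes, 111.4% for median signal and 96.5 bp for width.

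Of the single named results, 1356 comparisons with an alternative kept direction and side of the threshold, 165 lost the call, 37 gained it and 38 turned. Centring turned the log2 difference at ANK1 to -0.50, CDKN1B -0.065, CDKN2C -1.89, EIF3H -0.96, EIF3K -0.49, EIF6 -1.27, GYPE -0.63, IGF2BP2 -0.47, KDM5A -0.21, KMT2A -1.65, NCOA6 -1.59, NDUFB6 -1.02, NDUFV3 -0.18, ORC1 -1.25, PRIM2 -0.77, PSMC5 -0.23, PSMD12 -0.46, RPL9 -0.59, RPLP1 -1.001, RPS18 -0.64, RPS27A -0.86, SNRPA -0.19, SRSF11 -0.10, SRSF8 -0.24, TAL1 -0.66, THBS1 -0.78, U2AF1 -0.28 and WDR82 -0.35. The fragment scale turned CDKN2C to -0.74, EIF6 to -0.12, KMT2A to -0.51, NCOA6 to -0.43 and ORC1 to -0.10. The highest peak alone turned FLI1 to 0.62 and NCOA6 to -0.075. Leaving out METTL3-KO replicate 1 turned CDKN2C to -0.28 and NCOA6 to -0.63, and leaving out METTL3-KO replicate 2 turned RUNX1 to 0.27. Over the libraries left out in turn, CDKN2C ranged up to 0.70, NCOA6 up to 1.65 and RUNX1 down to -1.08.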
